A study of Mus musculus with 2 samples.

Results

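Kolliker's organ cells with Calb1 or Crabp1 were taken from single-cell RNA sequencing of mouse cochleae at E16.5. They were chosen by their own transcripts. A barcode, the droplet tag that stands for a cell, was kept when it held at least 1000 UMIs (unique transcript molecules) from 500 or more genes, with no more than 10% of them from mitochondrial genes. It also needed at least 2 UMIs of Epyc, at least 2 of Calb1 and Crabp1 summed, and at least 1 of the epithelial genes Epcam, Cdh1 or Cldn7. Barcodes with any UMI of Pou4f3, a hair cell transcription factor, or of Otoa, which marks interdental cells of the spiral limbus, were left out. The gate kept 522 of 18826 deposited barcodes, 50 from Emx2Cre;Ptch1f/f and 472 from wild type.

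The Emx2Cre;Ptch1f/f group, called mutant below, had Cre driven by Emx2 and floxed Ptch1 alleles, the wild-type group is labelled as wild type only, and both were on a mixed 129/SvEv and C57BL/6N background. For each genotype 8 cochleae were pooled into 1 library, so cells cannot be traced to an embryo and no test between genotypes was possible. Cre acts only in cells that have expressed Emx2, and a library with Cre and unfloxed Ptch1 was not analysed here. The labels do not say which part of Ptch1 is floxed, and 3′ tags outside the deleted part do not check the deletion.

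Kolliker's organ is the transient columnar epithelium on the medial side of the cochlear floor, beside the prosensory domain that forms the organ of Corti. Before hearing starts its cells secrete proteins of the tectorial membrane and release ATP that drives spontaneous activity in hair cells and their neurons, and later most of them are lost as the inner sulcus opens. Ptch1 is the Hedgehog receptor that keeps Smo silent until a ligand binds. In the embryonic cochlea Sonic hedgehog from the spiral ganglion holds back hair cell differentiation and patterns the medial floor.

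Of the barcodes that passed the depth filters, the gate kept 0.533% in the mutant (50 of 9373, exact Clopper-Pearson 95% interval 0.396 to 0.703%) and 7.33% in wild type (472 of 6440, 6.70 to 7.99%). These intervals, and all those given for levels, cover counting error only and say nothing of the spread between embryos. A share of barcodes also depends on how many other cells each library caught. Gated barcodes held between 1686 and 47760 UMIs in the mutant, with a median of 13902.5, and between 3381 and 137356 in wild type, with a median of 8715. Together they held 853735 UMIs in the mutant and 5534538 in wild type. No gated barcode sequence was shared by the libraries, although 25 barcodes were shared in all.

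The 2 libraries also differed in RNA from other cells, and this touches every comparison between genotypes below. Barcodes with over 10 UMIs per 10000 from 25 genes of mesenchyme, pigment cells, macrophages, vessels and glia, called mixed here, made up 38.0% of the gated barcodes in the mutant (19 of 50) and 80.7% in wild type (381 of 472). Among other epithelial barcodes the share was 34.4% in the mutant and 81.6% in wild type. Haemoglobin RNA summed to 1.97 UMIs per 10000 in gated barcodes of the mutant and 274 in those of wild type, where 74 barcodes held over 50 per 10000. All 7 macrophage markers and all 5 melanocyte markers were at 0 UMIs in the mutant gated barcodes, where 0 allows up to 3.51 CPM. CPM is a gene's UMIs per 1000000 UMIs of the summed barcodes. In wild type the macrophage markers summed to 44.3 CPM and the melanocyte markers to 41.9 CPM. Endothelial markers summed to 52.7 CPM in the mutant and 124 CPM in wild type, with Cdh5 and Kdr at 0 in the mutant, and pericyte markers to 42.2 CPM in the mutant and 71.9 CPM in wild type, with Acta2 at 0 in the mutant. The part of this RNA in the differences below was not tested beyond leaving out mixed barcodes and, separately, haemoglobin-rich ones with over 50 UMIs per 10000. Leaving out mixed barcodes did not clear haemoglobin RNA. The haemoglobin gene Hbb-bs was then still at 120 CPM in the mutant and 26438 CPM in wild type.

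The gate narrowed at different steps in the 2 libraries. Barcodes with an epithelial UMI were 30.4% of those passing in the mutant (2850) and 39.6% in wild type (2550). Of these, 12.7% held at least 2 UMIs of Epyc in the mutant (362) and 42.0% in wild type (1071). Absence of Pou4f3 removed 0 of these Epyc barcodes in the mutant and 87 in wild type. Absence of Otoa kept 30.4% of them in the mutant (110 of 362) and 74.6% in wild type (734 of 984). In absolute terms the Epyc barcodes with Otoa numbered 252 in the mutant and 250 in wild type. The last condition, Calb1 and Crabp1, kept 45.5% in the mutant (50 of 110) and 64.3% in wild type (472 of 734). Most of the Epyc barcodes of the mutant therefore carried Otoa, and most of those of wild type did not. Without the Otoa condition the gate kept 172 barcodes in the mutant (1.84%) and 609 in wild type (9.46%). The conditions count UMIs, so they also depend on depth. With every barcode thinned to 2000 UMIs first, the gate kept 9 of 8081 barcodes in the mutant (0.111%) and 194 of 6440 in wild type (3.01%).

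**Figure D1:**
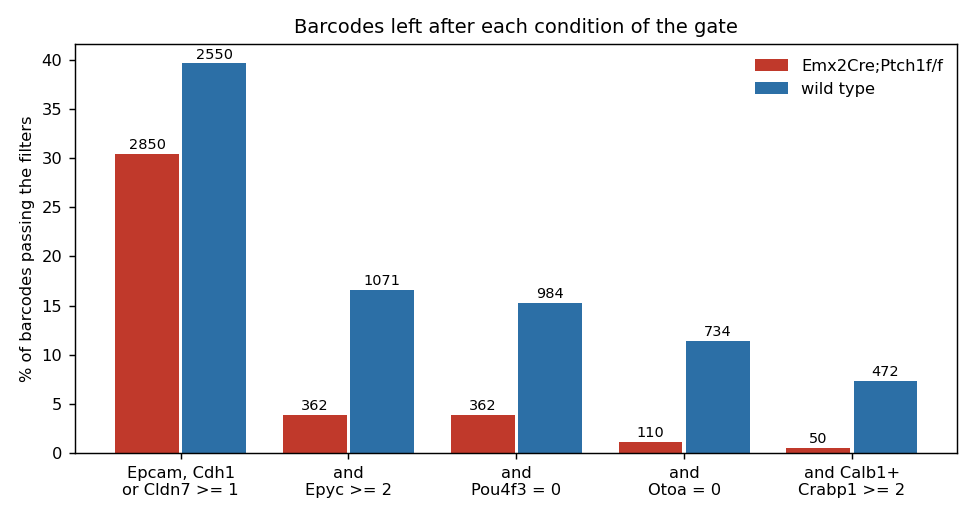
Barcodes left after each condition of the gate, as % of the barcodes passing the depth filters, with the number of barcodes above each bar, for Emx2Cre;Ptch1f/f and wild type. The bars differ little at the epithelial step (30.4% and 39.6%) and most after the Epyc and Otoa steps, ending at 50 and 472 barcodes.

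The genes that chose the cells are given as a description. Epyc, a small leucine-rich proteoglycan of cartilage and cochlear matrix, had a lowest, median and highest count of 2, 4 and 68 UMIs per gated barcode in the mutant, against 2, 12 and 506 in wild type. Its summed level was 466 CPM in the mutant (exact Poisson 95% interval 422 to 514) and 1998 CPM in wild type (1961 to 2036). Calb1, the cytosolic calcium buffer calbindin, had 0, 3 and 15 UMIs in the mutant, against 0, 4 and 100 in wild type, and a level of 196 CPM in the mutant and 595 CPM in wild type. Crabp1, which binds retinoic acid in the cytoplasm, had 0, 1 and 11 UMIs in the mutant, against 0, 3 and 146 in wild type, and a level of 144 CPM in the mutant and 560 CPM in wild type. The gated barcodes of the mutant thus lay near the floor of the gate for all 3 genes. Those of wild type lay further above it in their median count of Epyc. Their median counts of Calb1 and Crabp1 were also low, and only their highest counts were far above the floor. Epcam, which the gate also used, went the other way, with 868 CPM in the mutant and 633 CPM in wild type.

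Mesenchymal barcodes, which should lack Epyc in abundance, held 10.1 CPM of Epyc in the mutant and 35.8 CPM in wild type. Calb1 was at 1.14 CPM in mesenchyme of the mutant and 6.13 CPM in that of wild type. Crabp1 was less specific to epithelium, with 52.8 CPM in mesenchyme of the mutant and 32.3 CPM in that of wild type. Mesenchyme here means barcodes with no epithelial UMI and at least 10 UMIs of Col1a2 and Col3a1, 2360 in the mutant and 1756 in wild type.

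Calb1 and Crabp1 were detected together in a smaller share of the gated barcodes in the mutant. Both were found in 34.0% of gated barcodes in the mutant (17 of 50, interval 21.2 to 48.8%) and in 74.4% in wild type (351 of 472, 70.2 to 78.2%). Calb1 without Crabp1 made up 48.0% in the mutant (24, 33.7 to 62.6%) and 20.1% in wild type (95, 16.6 to 24.03%). Crabp1 without Calb1 made up 18.0% in the mutant (9, 8.58 to 31.4%) and 5.51% in wild type (26, 3.63 to 7.97%). Depth did not follow this order: median UMIs of the Calb1-only, both and Crabp1-only barcodes were 11876, 18104 and 16542 in the mutant, against 9177, 8713 and 6516 in wild type. These shares describe detection, since a gene at a low level is missed in some barcodes.

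**Figure D2:**
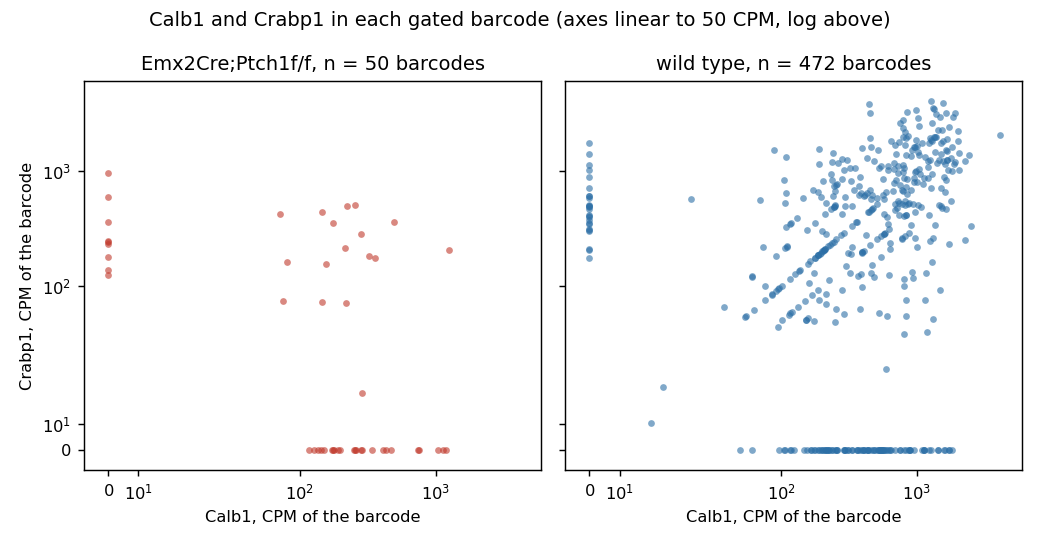
Crabp1 against Calb1 in each gated barcode, in CPM of that barcode, on axes linear to 50 CPM and logarithmic above, for Emx2Cre;Ptch1f/f (50 barcodes) and wild type (472 barcodes). The 17 barcodes of Emx2Cre;Ptch1f/f with both genes are scattered at lower levels than most of the 351 in wild type, and 24 lie on the axis where Crabp1 is 0.

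The label names 2 further genes that the gate did not use. Adgrg2, an adhesion G protein-coupled receptor best known from the epididymis, had 0, 0 and 7 UMIs as lowest, median and highest in gated barcodes of the mutant, against 0, 2 and 93 in wild type. Its level was 59.7 CPM in the mutant (44.5 to 78.5, 51 UMIs) and 285 CPM in wild type (271 to 299, 1576 UMIs), a log2 ratio of -2.23. Ratios throughout are log2 of the level plus 1 CPM in the mutant over that in wild type. The 2 intervals do not overlap, and the ratio lay between -2.91 and -1.46 under every alternative tried.

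The position of Adgrg2 against other cells differed as well. Other epithelial barcodes held 27.9 CPM of Adgrg2 in the mutant and 48.6 CPM in wild type, and barcodes with at least 2 UMIs of Otoa held 66.2 CPM in the mutant and 77.9 CPM in wild type. Gated barcodes of the mutant therefore stood near the Otoa barcodes of their own library, and those of wild type stood well above both groups. After thinning to 2000 UMIs, Adgrg2 was detected in 8.16% of gated barcodes in the mutant (2.27 to 19.6%) and 36.2% in wild type (31.9 to 40.8%). In mesenchyme, as the background of free RNA, that share was 2.97% in the mutant and 2.16% in wild type. Without thinning the gated shares were 46.0% in the mutant and 70.8% in wild type.

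Ecrg4, which encodes the secreted peptide precursor augurin, differed less. Gated barcodes held 0, 19.5 and 210 UMIs as lowest, median and highest in the mutant, against 0, 19 and 639 in wild type. The level was 2051 CPM in the mutant (1956 to 2149) and 2724 CPM in wild type (2681 to 2768), a log2 ratio of -0.41. Leaving the Otoa condition out of the gate brought the ratio to 0.04. Other epithelium held 1224 CPM of Ecrg4 in the mutant and 1423 CPM in wild type, and Otoa barcodes held more than gated ones in both libraries, 3406 CPM in the mutant and 4492 CPM in wild type. Adgrg2 thus stood above both other epithelium and Otoa barcodes in wild type only. Members were chosen with earlier results of these data known, so this is a description and no check of the label. For the mutant the name rests on Epyc, Calb1 and Crabp1 near the floor of the gate, and Ecrg4 marks the Otoa barcodes more strongly.

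Values near the edge of the gate are given with no test. Barcodes with exactly 2 UMIs of Epyc, just inside, held 8.75 CPM of Adgrg2 in the mutant (9 barcodes) and 43.5 CPM in wild type (40 barcodes). Those with exactly 1, just outside, held 26.1 CPM in the mutant (41 barcodes) and 32.9 CPM in wild type (65 barcodes). Well inside, with over 10 UMIs of Epyc, Adgrg2 was at 122 CPM in the mutant (9 barcodes) and 400 CPM in wild type (252 barcodes), and Ecrg4 at 4231 CPM in the mutant and 3546 CPM in wild type. On the Calb1 and Crabp1 side, barcodes with exactly 2 UMIs held 10.6 CPM of Adgrg2 in the mutant and 84.8 CPM in wild type, and those with exactly 1 held 48.4 CPM in the mutant and 62.8 CPM in wild type. At the Epyc edge in wild type, Adgrg2 was thus closer to its level just outside the gate than to that well inside it. In the mutant the value just inside rests on 1 UMI of Adgrg2 at either edge, too few to place it.

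Promoter windows are shown for the 4 of 5 label genes found in the RefSeq table for GRCm38.p6, because these are the genes by which the cells are recognised. Each is the 250 bases before the start that GENCODE also gives, on the plus strand, at chr10:97643818-97644067 for Epyc, chr9:54764498-54764747 for Crabp1, chrX:160390440-160390689 for Adgrg2 and chr1:43730352-43730601 for Ecrg4. Capitals mark GC boxes, searched as GGGCGG on both strands.
Epyc: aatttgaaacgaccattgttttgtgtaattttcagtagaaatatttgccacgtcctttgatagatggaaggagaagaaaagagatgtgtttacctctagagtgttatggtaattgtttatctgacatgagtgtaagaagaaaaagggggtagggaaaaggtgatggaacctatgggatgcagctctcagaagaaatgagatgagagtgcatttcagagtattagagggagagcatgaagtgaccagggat
Crabp1: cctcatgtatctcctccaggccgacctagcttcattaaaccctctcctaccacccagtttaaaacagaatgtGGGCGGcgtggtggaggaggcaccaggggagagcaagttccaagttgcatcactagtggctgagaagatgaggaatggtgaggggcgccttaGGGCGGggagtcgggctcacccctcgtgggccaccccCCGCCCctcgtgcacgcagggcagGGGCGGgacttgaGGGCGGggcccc
Adgrg2: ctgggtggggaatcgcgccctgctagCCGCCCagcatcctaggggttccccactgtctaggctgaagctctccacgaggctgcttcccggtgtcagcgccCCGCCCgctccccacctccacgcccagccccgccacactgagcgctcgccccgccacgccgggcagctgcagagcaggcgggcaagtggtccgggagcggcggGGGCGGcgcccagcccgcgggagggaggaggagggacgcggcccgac
Ecrg4: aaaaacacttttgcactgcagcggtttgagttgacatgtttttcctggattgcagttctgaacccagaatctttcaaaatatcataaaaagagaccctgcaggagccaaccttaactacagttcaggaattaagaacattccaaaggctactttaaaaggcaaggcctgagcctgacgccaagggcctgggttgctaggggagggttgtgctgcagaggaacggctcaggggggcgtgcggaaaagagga

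The GC content of these windows was 39.2% for Epyc, 63.6% for Crabp1, 75.6% for Adgrg2 and 48.4% for Ecrg4, against a median of 52.4% over 32851 promoter windows of the same length. GC boxes numbered 5 in Crabp1, 3 in Adgrg2 and 0 in Epyc and Ecrg4. Of all windows, 32.7% held a GC box, 12.4% held TATAAA on either strand and 0.225% held TGGGTGGTC, the GLI consensus, on either strand. Neither of the last 2 motifs was in the 4 windows, which says only that these letters are not there. The windows of Adgrg2 and Crabp1 were above the median of all windows in GC content, and those of Epyc and Ecrg4 below it. Any link of the windows to levels in the mutant was not tested.

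Across 11902 genes with at least 20 UMIs over both libraries' gated barcodes, 581 (4.88%) were higher in the mutant by 2-fold or more and 801 (6.73%) were lower by as much. The 8 genes of the gate were left out of these counts, and the median log2 ratio was 0.07. With median-of-ratios scaling, which moved the median of all genes by -0.15, 404 genes were higher and 987 lower. Without mixed barcodes 8206 genes were measured, of which 513 (6.25%) were higher and 224 (2.73%) lower. Among the 7482 genes with at least 100 UMIs, 195 (2.61%) were higher and 226 (3.02%) lower. Counts for the gene lists below are to be read against these shares.

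Of 12 tectorial membrane and matrix genes, 11 were measured, and their median log2 ratio was -0.37. In gated barcodes of the mutant 2 of them, Tectb and Otogl, were 2-fold higher, and 4, Col9a1, Col9a3, Col11a2 and Matn4, were 2-fold lower. Tecta, alpha-tectorin, a main non-collagenous protein of the tectorial membrane, had 0, 12 and 69 UMIs as lowest, median and highest in the mutant, against 0, 3 and 189 in wild type. Its level was 972 CPM in the mutant (907 to 1041) and 609 CPM in wild type (589 to 630), a log2 ratio of 0.67. At 2000 UMIs per barcode Tecta was detected in 77.6% of gated barcodes in the mutant (63.4 to 88.2%) and 51.1% in wild type (46.5 to 55.7%), with 1.78% in mesenchyme of the mutant and 1.03% in that of wild type. More of the barcodes therefore carried Tecta in the mutant, but the highest counts were in wild type. Without mixed barcodes its ratio was 0.26.

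Tectb, beta-tectorin, was at 175 CPM in the mutant and 74.98 CPM in wild type, a log2 ratio of 1.21, and Otogl, otogelin-like, at 66.8 CPM in the mutant and 28.4 CPM in wild type, also 1.21. The Tectb ratio did not hold without mixed barcodes (-0.018) or without barcodes over 3 times the median depth (-0.45), and that of Otogl stayed between 0.95 and 2.22. Otog, otogelin, was at 93.7 CPM in the mutant and 74.8 CPM in wild type. Ceacam16, a later component of the membrane, had no UMI in either library. The collagens ran the other way. Col9a1 was at 219 CPM in the mutant and 524 CPM in wild type, a log2 ratio of -1.26, Col9a3 at 349 CPM in the mutant and 718 CPM in wild type (-1.04), and Col11a2 at 56.2 CPM in the mutant and 143 CPM in wild type (-1.33). Col9a1 and Col9a3 were lower in mesenchyme too, Col9a1 with 592 CPM in the mutant and 1214 CPM in wild type. Without mixed barcodes the ratio was -0.91 for Col9a1 and -0.82 for Col9a3, and 1 of 10 measured genes of the list was 2-fold higher and 1 was 2-fold lower. Without the Otoa condition that of Col11a2 was -0.52. Col2a1, the major collagen of the tectorial membrane, differed less, with 1239 CPM in the mutant and 1597 CPM in wild type (-0.37).

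**Figure D3:**
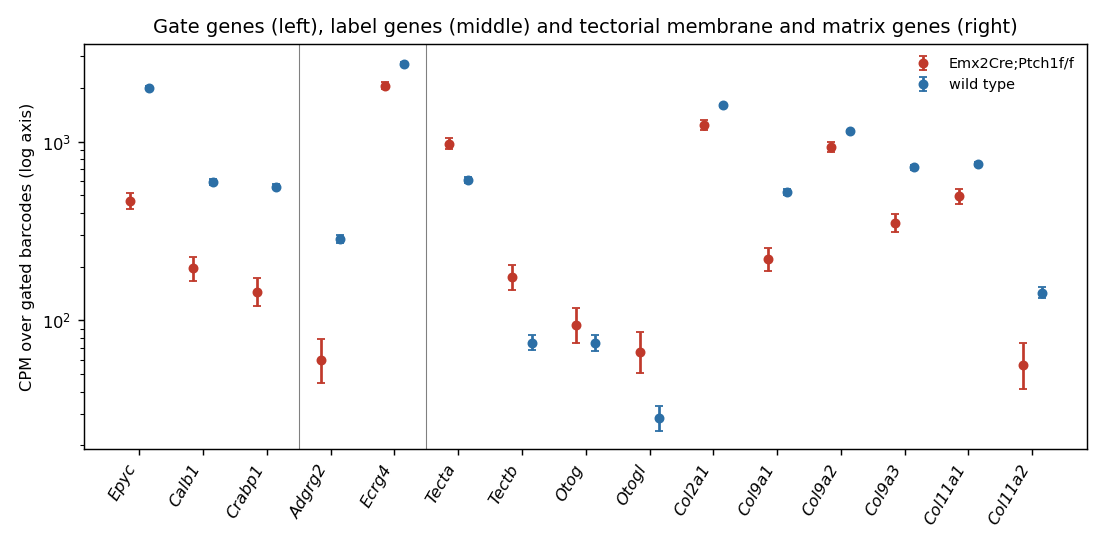
Summed level in gated barcodes, in CPM on a log axis, with exact Poisson 95% intervals, for gate genes (left), the other label genes (middle) and tectorial membrane and matrix genes (right), in Emx2Cre;Ptch1f/f and wild type (1 library each). Adgrg2 and the collagens lie lower and Tecta, Tectb and Otogl higher in Emx2Cre;Ptch1f/f, with intervals of Otog that overlap.

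Of 13 genes of the medial floor 12 were measured, 1 was 2-fold higher and 3 were 2-fold lower in the mutant, Adgrg2 among them, with a median log2 ratio of -0.24. Itih5, a heavy chain that binds hyaluronan in the matrix, was at 347 CPM in the mutant (308 to 389) and 120 CPM in wild type (111 to 130), a log2 ratio of 1.52 that stayed between 0.95 and 1.76 under the alternatives. Fabp7, a fatty acid binding protein also of glia, was at 55.1 CPM in the mutant and 203 CPM in wild type (-1.86), but at 1.07 without mixed barcodes. In the mutant 33 of its 47 UMIs came from 1 barcode, which stayed in when mixed barcodes were left out. Without the barcode of each library that held most of it, the ratio of Fabp7 was -3.44. Fst, the activin antagonist follistatin, was at 34.0 CPM in the mutant and 67.0 CPM in wild type, below the other epithelium of both libraries (175 CPM in the mutant and 127 CPM in wild type). Its ratio was -0.96, and -1.96 without the barcode of each library that held most of it. Without mixed barcodes the ratio of Fst was 2.25, on 19 UMIs in the mutant and 8 in wild type. Of those 19 UMIs, 17 came from 1 barcode. In that setting 3 of 11 measured genes of the list, Fst and Fabp7 among them, were 2-fold higher and 1 was lower. Fgf10, a growth factor of the medial floor, was at 104 CPM in the mutant and 86.2 CPM in wild type, and Jag1, a Notch ligand, at 63.3 CPM in the mutant and 77.0 CPM in wild type.

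Of 6 genes of the neighbouring Otoa cells 5 were measured and none passed 2-fold, with a median log2 ratio of -0.37. Smoc2, a matricellular calcium-binding protein, was at 227 CPM in the mutant and 131 CPM in wild type (0.79), far below the Otoa barcodes, which held 565 CPM in the mutant and 754 CPM in wild type. Itga8, an integrin chain, was at 102 CPM in the mutant and 171 CPM in wild type (-0.74).

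The targeted gene Ptch1 was higher, not lower, in the gated barcodes of the mutant. It had 0, 1 and 17 UMIs as lowest, median and highest in the mutant, against 0, 0 and 7 in wild type. Its level was 129 CPM in the mutant (106 to 155, 110 UMIs) and 24.6 CPM in wild type (20.6 to 29.1, 136 UMIs), a log2 ratio of 2.34. Ptch1 is itself a target of the pathway, and its 3′ tags do not show whether the transcript is intact. Other epithelium had 163 CPM in the mutant and 28.2 CPM in wild type, while mesenchyme had 27.1 CPM in the mutant and 26.9 CPM in wild type. At 2000 UMIs, Ptch1 was detected in 14.3% of gated barcodes in the mutant (5.94 to 27.2%) and 2.54% in wild type (1.32 to 4.40%). Its ratio was 0.94 without mixed barcodes, below 2-fold.

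The other feedback genes were scarce. Gli1, which the pathway induces and which acts as its transcriptional activator, had 8 UMIs in each library, which is 9.37 CPM in the mutant and 1.45 CPM in wild type. Hhip, which binds and holds back Hedgehog ligands, was at 4.69 CPM in the mutant (4 UMIs) and 2.53 CPM in wild type (14 UMIs). Of 10 coreceptors and transducers, all measured, 1 was 2-fold higher and 1 was 2-fold lower, with a median log2 ratio of 0.05. Evc, a ciliary scaffold for Smo, was at 12.9 CPM in the mutant (11 UMIs) and 5.78 CPM in wild type (32 UMIs, 1.03). Gpr161, a ciliary receptor that keeps the pathway low, was at 2.34 CPM in the mutant (2 UMIs) and 7.05 CPM in wild type (39 UMIs, -1.27). For both genes the intervals of the libraries overlap. Evc stood at 0.74 without the barcode of each library that held most of it, and Gpr161 at -0.70 without mixed barcodes. The coreceptor gene Boc was at 58.6 CPM in the mutant and 41.0 CPM in wild type, and the coreceptor gene Gas1 at 189 CPM in the mutant and 229 CPM in wild type. Emx2, the homeobox gene that drives the Cre, had 5 UMIs in the mutant (5.86 CPM) and 49 in wild type (8.85 CPM), below the 28.4 CPM of other epithelium in the mutant and the 17.0 CPM of that in wild type. In the mutant 3 of the 5 UMIs of Emx2 came from 1 barcode, and the ratio of -0.52 became 1.87 without mixed barcodes, on 3 UMIs in the mutant and 1 in wild type.

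Among lists with more than 1 measured gene, those of the cell cycle had the highest medians. All 22 S phase genes were measured, 18 were 2-fold higher in the mutant and none was 2-fold lower, with a median log2 ratio of 1.34. All 22 genes of G2 and M phase were measured, 17 were 2-fold higher and none was 2-fold lower, with a median of 1.31. In other epithelium the median was 0.54 for S phase genes and 0.62 for genes of G2 and M phase. S phase genes summed to 1438 CPM in gated barcodes of the mutant and 619 CPM in those of wild type, whereas mesenchyme had 1344 CPM in the mutant and 1277 CPM in wild type. Genes of G2 and M phase summed to 2010 CPM in the mutant and 819 CPM in wild type, with 1872 CPM in mesenchyme of the mutant and 1877 CPM in that of wild type. Gated barcodes of the mutant thus held about as much of these transcripts as mesenchyme, and those of wild type held less.

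Among the S phase genes, Cdc6, which loads the replicative helicase, was at 22.3 CPM in the mutant and 4.52 CPM in wild type (2.08). Rrm2, a subunit of ribonucleotide reductase, was at 46.9 CPM in the mutant and 10.8 CPM in wild type (2.01). The list's lowest ratio was that of Rfc2, a subunit of the clamp loader, at 0.66. Mki67, the proliferation antigen Ki-67, was at 186 CPM in the mutant and 67.4 CPM in wild type (1.45), and Top2a, which untangles DNA before mitosis, at 384 CPM in the mutant and 121 CPM in wild type (1.65). At 2000 UMIs Mki67 was detected in 16.3% of gated barcodes in the mutant (7.32 to 29.7%) and 5.51% in wild type (3.63 to 7.97%), while mesenchyme had 13.3% in the mutant and 15.5% in wild type. Top2a was detected in 30.6% in the mutant (18.3 to 45.4%) and 14.4% in wild type (11.4 to 17.9%).

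These counts moved with the gate and with depth. With the gate applied after thinning to 2000 UMIs, which left 9 barcodes in the mutant, none of 15 measured S phase genes was 2-fold higher and 3 were lower, and none of 16 genes of G2 and M phase was higher and 12 were lower. With the Otoa condition left out (172 barcodes in the mutant), 3 S phase genes and 6 of G2 and M phase were 2-fold higher. Without barcodes over 3 times the median depth, 7 of 20 S phase genes and 19 of 22 of G2 and M phase were. With gated barcodes thinned to 2000 UMIs, 3 of 12 S phase genes and 11 of 15 of G2 and M phase were. With the gate applied at the depth of the shallowest wild-type barcode, 16 of 19 S phase genes and 10 of 20 of G2 and M phase were. Without mixed barcodes 14 of 17 S phase genes and 13 of 21 of G2 and M phase were 2-fold higher.

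**Figure D4:**
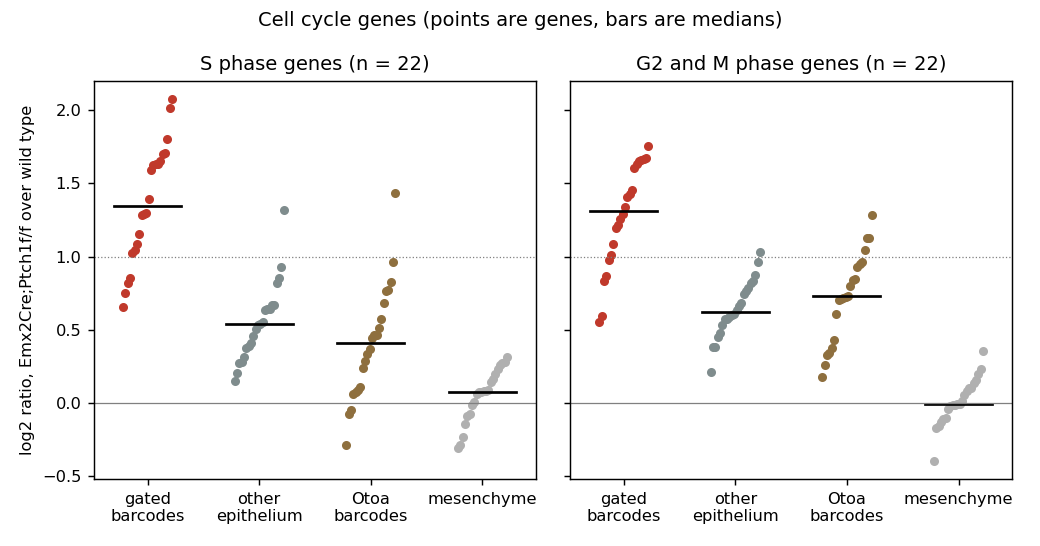
Log2 ratio of Emx2Cre;Ptch1f/f over wild type for each of 22 S phase genes (left) and 22 genes of G2 and M phase (right) in gated barcodes, other epithelium, Otoa barcodes and mesenchyme, with points for genes, bars for medians and a dotted line at 2-fold. Medians in gated barcodes are 1.34 and 1.31, above those of other epithelium at 0.54 and 0.62, and mesenchyme lies around 0.

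Cyclin D1 was higher than its family. Ccnd1, which pairs with CDK4 and CDK6 to start the cycle, was at 955 CPM in the mutant (890 to 1022) and 160 CPM in wild type (149 to 171), a log2 ratio of 2.57 that stayed between 1.05 and 2.77 under the alternatives. Other epithelium held 614 CPM of Ccnd1 in the mutant and 246 CPM in wild type, a log2 ratio of 1.32 that was itself past 2-fold. Otoa barcodes held 438 CPM of Ccnd1 in the mutant and 250 CPM in wild type, and mesenchyme 160 CPM in the mutant and 168 CPM in wild type. At 2000 UMIs Ccnd1 was detected in 59.2% of gated barcodes in the mutant (44.2 to 73.0%) and 21.8% in wild type (18.2 to 25.8%). In mesenchyme those shares were 22.9% in the mutant and 23.1% in wild type. Of the 10 measured among 11 D cyclins, Myc genes and CDK inhibitors it alone passed 2-fold, and the list's median was -0.19. Ccnd2 was at 112 CPM in the mutant and 149 CPM in wild type (-0.40). Without mixed barcodes Ccnd2 stood at 1.00, on 22 UMIs in the mutant and 24 in wild type, and Ccnd1 at 2.02. Ccnd1 was thus not alone past 2-fold in that setting. Cdkn1b, the inhibitor p27 that marks cell cycle exit in the prosensory domain, was at 77.3 CPM in the mutant and 96.8 CPM in wild type. Cdkn1c, the inhibitor p57, was at 493 CPM in the mutant and 555 CPM in wild type.

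Of 10 timing genes of the Lin28 and activin pathways 9 were measured, 2 were 2-fold higher and 1 was 2-fold lower, with a median of 0.35. Hmga2, a chromatin protein of early progenitors that let-7 microRNAs hold down, was at 280 CPM in the mutant (246 to 318) and 53.7 CPM in wild type (47.7 to 60.1), a log2 ratio of 2.36 that stayed between 1.43 and 2.72. Other epithelium held more, 600 CPM in the mutant and 153 CPM in wild type. Lin28b, which blocks the maturation of let-7, was at 28.1 CPM in the mutant and 11.6 CPM in wild type (1.21). Inhba, the activin A subunit, was at 2.34 CPM in the mutant (2 UMIs) and 11.4 CPM in wild type (63 UMIs), a log2 ratio of -1.89, but without mixed barcodes 1 UMI was left in the mutant and 0 in wild type. Igf2bp1, an RNA-binding protein also under let-7, was at 105 CPM in the mutant and 56.9 CPM in wild type (0.88).

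Of 16 otic transcription factors 11 were measured and 1 passed 2-fold, with a median of 0.48. That gene was Sall1, a zinc finger repressor, at 18.7 CPM in the mutant and 7.77 CPM in wild type (1.17). Nr2f1, an orphan nuclear receptor needed for normal cochlear development in mice, was at 823 CPM in the mutant and 424 CPM in wild type (0.96). Sox9 was at 476 CPM in the mutant and 466 CPM in wild type. Of 18 prosensory and supporting cell genes 15 were measured, 1 was 2-fold higher and 3 lower, with a median of -0.26. Sox2, which sets up the prosensory domain, was at 66.8 CPM in the mutant and 45.0 CPM in wild type (0.56). The Sox2 ratio was -1.24 with the gate after thinning to 2000 UMIs, -2.79 with the gate at the depth of the shallowest wild-type barcode and -0.18 without barcodes over 3 times the median depth. Eya1, a transcriptional coactivator of early otic development, was at 292 CPM in the mutant and 177 CPM in wild type (0.72). S100a1, a calcium-binding protein of differentiating supporting cells, was at 28.1 CPM in the mutant and 79.3 CPM in wild type (-1.46). Prox1, a homeobox gene of supporting cells, had 0 UMIs in the mutant, where 0 allows up to 3.51 CPM, and 29 in wild type. Without mixed barcodes 4 of 12 measured genes of this list were 2-fold higher and 1 was lower, with a median of 0.35.

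Of 15 hair cell genes 9 were measured, none was 2-fold higher and 6 were lower, with a median log2 ratio of -1.68. Without mixed barcodes 5 were measured, 1 was higher and none lower, with a median of 0.47. Atoh1, Gfi1, Lhx3, Fgf8, Barhl1 and Grxcr1 had no UMI in the mutant, where 0 allows up to 3.51 CPM, and Atoh1, which starts hair cell differentiation, had 15 UMIs in wild type (2.71 CPM). Pcp4, a calmodulin-binding peptide, was at 3.51 CPM in the mutant (3 UMIs) and 33.4 CPM in wild type (185 UMIs, -2.93). Ccer2 was at 8.20 CPM in the mutant and 56.2 CPM in wild type (-2.64), with other epithelium at 17.4 CPM in the mutant and 172 CPM in wild type. The Ccer2 ratio was -0.11 without mixed barcodes. Pvalb, parvalbumin, was at 12.9 CPM in the mutant and 62.3 CPM in wild type, and without mixed barcodes its ratio of -2.19 became 1.34. All 11 UMIs of Pvalb in the mutant came from 1 barcode, which was not a mixed one. Without the barcode of each library that held most of it, the ratio of Pvalb was -5.86.

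Of 9 lateral genes 5 were measured and 3 were 2-fold lower, with a median of -1.91, which was -0.19 without mixed barcodes. Only Gata2 and Lmo4 (-0.12) were measured in that setting. Bmp4, the signal from the lateral edge of the floor, was at 11.7 CPM in the mutant and 73.5 CPM in wild type (-2.55, but 0.15 without mixed barcodes). Gata2, a transcription factor of nonsensory otic epithelium, was at 10.5 CPM in the mutant and 48.4 CPM in wild type (-2.10, but -0.26 without mixed barcodes). Of 10 roof genes 5 were measured and 3 were 2-fold lower, with a median of -1.59, which was 0.25 without mixed barcodes. Only Oc90 (3.02) and Rspo3 (-2.52), which point opposite ways, were measured in that setting. Oc90, an otoconial protein of nonsensory otic epithelium, was at 103 CPM in the mutant and 136 CPM in wild type, far below the 2626 CPM of other epithelium in the mutant and the 1441 CPM of that in wild type. In the mutant 45 of the 88 UMIs of Oc90 came from the barcode that held most of it. Of 11 genes of marginal cells, the potassium-secreting cells of the stria, 4 were measured and none passed 2-fold.

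Of 14 FGF genes 12 were measured, 3 were 2-fold higher and 2 lower in the mutant, with a median of 0.39. The ligand gene Fgf9 was at 28.1 CPM in the mutant and 11.7 CPM in wild type (1.19). Etv4, a transcription factor induced by FGF signalling, was at 24.6 CPM in the mutant and 7.77 CPM in wild type (1.55). The feedback inhibitors of the pathway went apart, Spry1 with 101 CPM in the mutant and 46.1 CPM in wild type (1.11) and Spry2 with 21.1 CPM in the mutant and 57.1 CPM in wild type (-1.40). Spry2 stood at 0.15 without mixed barcodes, and Spry1 at -0.34 with gated barcodes thinned to 2000 UMIs. Fgf9 stood at 0.58 and Spry1 at 0.79 without mixed barcodes, where none of 6 measured genes of the list passed 2-fold. Fgf20, the prosensory ligand, had 11 UMIs in the mutant and 5 in wild type. Fgf3 had 0 UMIs in the mutant, where 0 allows up to 3.51 CPM, and 22 in wild type. Without mixed barcodes Fgf3 had 0 UMIs in both libraries.

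Of 14 Notch genes 11 were measured, 1 was 2-fold higher and 2 lower, with a median of 0.01. Hey2, a Notch and FGF target, was at 11.7 CPM in the mutant and 4.34 CPM in wild type (1.25), and Hes1, a Notch effector, at 279 CPM in the mutant and 155 CPM in wild type (0.84). The receptor gene Notch1 was at 149 CPM in the mutant and 148 CPM in wild type, and Notch2 at 15.2 CPM in the mutant and 35.4 CPM in wild type (-1.17). Without mixed barcodes Hey2 stood at 0.72 and Notch2 at 0.49, while Hes1 (1.06) and the related Notch gene Hey1 (1.01) passed 2-fold. Hey1 rested there on 24 UMIs in the mutant and 26 in wild type. Of 20 WNT genes 17 were measured, none was 2-fold higher and 3 were lower, with a median of -0.19. Rspo3, a WNT agonist, was at 7.03 CPM in the mutant and 23.1 CPM in wild type (-1.59), and Dkk3, a member of the Dickkopf family, at 24.6 CPM in the mutant and 64.7 CPM in wild type (-1.36). Sfrp1, a secreted WNT antagonist, was at 505 CPM in the mutant and 458 CPM in wild type.

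Partners of the genes that define the cells were described from lists of retinoic acid and calcium-binding genes. Of 17 retinoic acid genes 12 were measured, none was 2-fold higher and 1 was lower, with a median of 0.10. Crabp2, the relative of Crabp1 that carries retinoic acid to its nuclear receptors, was at 328 CPM in the mutant and 273 CPM in wild type (0.26). Rdh10, which oxidises retinol, was at 3.51 CPM in the mutant (3 UMIs) and 13.01 CPM in wild type (72 UMIs), a ratio of -1.63 with intervals that overlap. Of 15 calcium-binding genes other than Calb1, 13 were measured, none was higher and 3 were lower, with a median of -0.51. S100a13 was at 12.9 CPM in the mutant and 31.3 CPM in wild type (-1.22, but -0.22 without mixed barcodes). The list's median was 0.07 without mixed barcodes, with 1 of 11 measured genes higher and 1 lower.

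Genes of ATP signalling, by which these cells are known to excite hair cells later, were mostly scarce. Of 17 purinergic and connexin genes 8 were measured, none was 2-fold higher and 3 were lower, with a median of -0.34. Ano1, the calcium-gated chloride channel of Kolliker's organ, was at 2.34 CPM in the mutant (2 UMIs) and 14.8 CPM in wild type (82 UMIs), and Itpr2, a calcium release channel, at 9.37 CPM in the mutant and 33.2 CPM in wild type (-1.72). The connexin gene Gjb2 was at 163 CPM in the mutant and 193 CPM in wild type. Epithelial markers outside the gate did not differ by 2-fold in any of 5, and stress genes, as a sign of dissociation, had 1 of 11 higher and 1 lower, with a median of -0.10. Hspa1a, a heat shock gene, was the higher one, at 16.4 CPM in the mutant and 7.05 CPM in wild type, and Junb the lower, at 125 CPM in the mutant and 268 CPM in wild type. In the mutant 7 of 14 UMIs of Hspa1a came from 1 barcode, and the ratio of 1.11 became 0.33 without the barcode of each library that held most of it. The Junb ratio was -0.77 without mixed barcodes.

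The 12 highest ratios among 2059 genes that met the level rule included Ccnd1, Hmga2 and Ptch1. Gmnn, geminin, which stops re-replication, was at 86.7 CPM in the mutant and 16.4 CPM in wild type (2.33). Pbk, a mitotic kinase, was at 89.0 CPM in the mutant and 17.5 CPM in wild type (2.28). Lig1, a DNA ligase of replication, was at 149 CPM in the mutant and 33.2 CPM in wild type (2.13), and Clspn, a checkpoint protein of S phase, at 50.4 CPM in the mutant and 11.6 CPM in wild type (2.03). Gmnn, Pbk, Lig1 and Clspn are thus also cell cycle genes, picked here for their high ratios. With the gate after thinning to 2000 UMIs, which left 9 barcodes in the mutant, their ratios were -3.31, -2.57, 0.26 and -2.20. Pgf, placental growth factor, was at 69.1 CPM in the mutant and 15.4 CPM in wild type (2.10), with other epithelium at 45.8 CPM in the mutant and 12.1 CPM in wild type.

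The remaining 4 of the 12 carry limits of their own. Pbld1 was at 151 CPM in the mutant and 1.99 CPM in wild type, but 128 of its 129 UMIs in the mutant came from 1 barcode, and without it the ratio was -0.25. The histone gene Hist1h2ap was at 921 CPM in the mutant and 45.5 CPM in wild type (4.31), and mesenchyme had 675 CPM in the mutant and 113 CPM in wild type. Mpnd was at 66.8 CPM in the mutant and 9.58 CPM in wild type, with 61.4 CPM in mesenchyme of the mutant and 6.52 CPM in that of wild type. Gm10076 was at 2118 CPM in the mutant and 499.95 CPM in wild type, with 1939 CPM in mesenchyme of the mutant and 489 CPM in that of wild type. These last 3 differed in mesenchyme as well, and the 2 libraries were counted with different versions of Cell Ranger and may not share a kit version. The part of those versions cannot be told apart from genotype.

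The 12 lowest ratios held Adgrg2, Ccer2, Bmp4 and Pvalb, given above. Ablim1, an actin-binding LIM protein, was at 8.20 CPM in the mutant and 50.8 CPM in wild type (-2.49). Plxna2, a semaphorin receptor, was at 11.7 CPM in the mutant and 60.5 CPM in wild type (-2.27), and the ratio was -1.85 or lower under the alternatives. Ccn2, a matricellular protein downstream of YAP, was at 22.3 CPM in the mutant and 98.7 CPM in wild type (-2.10). Iigp1, an interferon-inducible GTPase, was at 9.37 CPM in the mutant and 53.5 CPM in wild type (-2.39), and Slc39a1, a zinc importer, at 12.9 CPM in the mutant and 55.5 CPM in wild type (-2.02). Igf1, a growth factor, was at 64.4 CPM in the mutant and 270 CPM in wild type (-2.05), with 21 of its 55 UMIs in the mutant from 1 barcode. Tubb3, a neuronal tubulin, was at 11.7 CPM in the mutant and 50.6 CPM in wild type, and Sncg, a synuclein of sensory neurons, at 38.7 CPM in the mutant and 134 CPM in wild type. Without mixed barcodes Slc39a1 stood at -0.80, Tubb3 at 0.39 and Sncg at 1.53. Of the 32 UMIs of Sncg left in the mutant in that setting, 30 came from 1 barcode. Without the barcode of each library that held most of it, the ratio of Sncg was -4.74.

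Neuronal RNA was concentrated in 1 barcode in the mutant and was spread more widely in wild type. The 8 neuronal markers summed to 348 CPM in gated barcodes of the mutant and 616 CPM in those of wild type. In the mutant 1 barcode held 271 of the 297 neuronal UMIs, among them 113 of 116 of Nefm, a neurofilament chain, and 12 of 12 of Elavl4, a neuronal RNA-binding protein. That barcode had 25573 UMIs, 2 of Epyc, 3 of Calb1 and 0 of Ecrg4. It also held 30 of 33 UMIs of Sncg, 33 of 47 of Fabp7 and all 11 of Pvalb in the mutant. This barcode was not a mixed one and stayed in when those were left out. Without it the sum was 31.4 CPM in the mutant. The highest barcode of wild type held 396 of 3407 neuronal UMIs, and without it the sum there was 548 CPM. Mesenchymal markers summed to 1697 CPM in the mutant and 2171 CPM in wild type, against 6747 CPM in mesenchyme of the mutant and 8322 CPM in that of wild type. Col1a1 was at 0 in the mutant. Glial markers summed to 235 CPM in the mutant and 261 CPM in wild type, most of it from Sox10 and Erbb3, which otic epithelium also expresses.

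Within each library, the gated barcodes were set beside other epithelium, meaning barcodes with at least 2 epithelial UMIs outside the gate (1687 in the mutant and 1422 in wild type). In the mutant 268 of 14363 genes (1.87%) were 2-fold higher in gated barcodes and 1414 (9.84%) were 2-fold lower. In wild type 112 of 14291 genes (0.784%) were higher and 385 (2.69%) lower. Against Otoa barcodes, 357 of 11898 genes (3%) were 2-fold higher and 780 (6.56%) lower in the mutant, and 390 of 12368 (3.15%) higher and 336 (2.72%) lower in wild type. The gate chose these cells, so the genes are a description of them. Higher in gated barcodes of both libraries were Prss35, a secreted serine protease homologue, with 63.3 CPM in the mutant and 77.5 CPM in wild type, and Pcolce2, an enhancer of procollagen processing, with 177 CPM in the mutant and 166 CPM in wild type. In other epithelium Prss35 was at 28.0 CPM in the mutant and 29.4 CPM in wild type, and Pcolce2 at 83.5 CPM in the mutant and 47.8 CPM in wild type. Chst15, which adds sulfate to chondroitin, was at 199 CPM in the mutant and 207 CPM in wild type, over 113 CPM in other epithelium of the mutant and 80.9 CPM in that of wild type. Spock1, a heparan sulfate proteoglycan, was at 227 CPM in the mutant and 220 CPM in wild type, over 119 CPM in other epithelium of the mutant and 111 CPM in that of wild type.

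Otoa barcodes held similar levels of some of these genes, with Prss35 at 48.8 CPM in the mutant and 72.0 CPM in wild type, and Chst15 at 180 CPM in the mutant and 154 CPM in wild type. The cotransporter gene Slc12a2 was at 265 CPM in the mutant and 245 CPM in wild type, and the survival gene Bcl2 at 347 CPM in the mutant and 314 CPM in wild type, also over other epithelium in both libraries. Otoa barcodes held 228 CPM of Slc12a2 in the mutant and 179 CPM in wild type. Upp1, uridine phosphorylase, was at 64.4 CPM in the mutant and 155 CPM in wild type, over 32.1 CPM in other epithelium of the mutant and 29.7 CPM in that of wild type. Otoa barcodes held 72.0 CPM of Upp1 in the mutant, more than the gated ones, and 55.2 CPM in wild type. Lower than other epithelium in both libraries were Oc90, Tectb, S100a1 and Socs2, an inhibitor of cytokine signalling, at 49.2 CPM in the mutant and 39.9 CPM in wild type. Dct and Ptgds, which pigment cells and mesenchyme express, were also lower. Tectb was below the other epithelium of its own library (571 CPM in the mutant and 311 CPM in wild type) and Tecta above it (659 CPM in the mutant and 285 CPM in wild type).

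**Figure D5:**
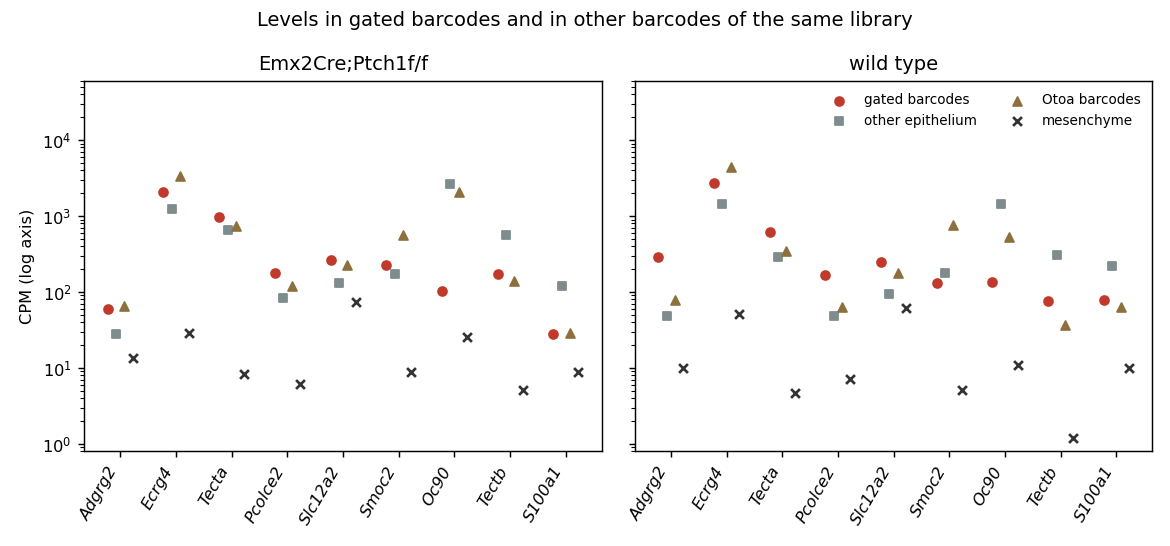
Level in CPM, on a log axis, of 9 genes in gated barcodes, other epithelium, Otoa barcodes and mesenchyme, in Emx2Cre;Ptch1f/f (left) and wild type (right), 1 library each. Adgrg2 in gated barcodes is level with the Otoa barcodes in Emx2Cre;Ptch1f/f (59.7 and 66.2 CPM) and above them in wild type (285 and 77.9 CPM), and Oc90 lies far below other epithelium in both.

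Barcodes with Epyc but without Calb1 and Crabp1 numbered 43 in the mutant and 152 in wild type. Their Adgrg2 was at 49.9 CPM in the mutant, close to that of the gated barcodes there, and at 27.3 CPM in wild type. Their Ecrg4 was at 2027 CPM in the mutant and 658 CPM in wild type. Their Bmp4 was at 5.75 CPM in the mutant and 253 CPM in wild type. Epyc barcodes without Calb1 and Crabp1 were therefore close to the gated ones in these label genes in the mutant, and unlike them in wild type. Mixed barcodes made up 41.9% of them in the mutant and 94.1% in wild type.

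Genes that differed the same way between Calb1-only and Crabp1-only barcodes in both libraries were picked as the largest such differences among 4219, so their values are a description. The Crabp1-only barcodes number 9 in the mutant and 26 in wild type, and the values rest on few molecules. Smoc2 was at 246 CPM in Calb1-only and 66.5 CPM in Crabp1-only barcodes of the mutant. In wild type Smoc2 was at 264 CPM in Calb1-only and 44.7 CPM in Crabp1-only barcodes. Smoc2 was also far higher in Otoa barcodes, as given above, and the gate left out any barcode with Otoa. Map2k1, the kinase MEK1, was at 65.5 CPM in Calb1-only and 15.4 CPM in Crabp1-only barcodes of the mutant, and at 44.1 CPM in Calb1-only and 5.59 CPM in Crabp1-only barcodes of wild type. Pla2r1, a receptor for secreted phospholipases, was at 87.3 CPM in Calb1-only and 30.7 CPM in Crabp1-only barcodes of the mutant, and at 58.5 CPM in Calb1-only barcodes of wild type with no UMI in the Crabp1-only ones.

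Among the genes picked for higher levels in Crabp1-only barcodes were genes of DNA synthesis. Rrm1, the large subunit of ribonucleotide reductase, was at 40.5 CPM in Calb1-only and 169 CPM in Crabp1-only barcodes of the mutant, and at 29.7 CPM in Calb1-only and 95.01 CPM in Crabp1-only barcodes of wild type. Tyms, thymidylate synthase, was at 34.3 CPM in Calb1-only and 164 CPM in Crabp1-only barcodes of the mutant, and at 30.7 CPM in Calb1-only and 78.2 CPM in Crabp1-only barcodes of wild type. Thrb, the thyroid hormone receptor beta, was at 53.0 CPM in Calb1-only and 143 CPM in Crabp1-only barcodes of the mutant, and at 23.0 CPM in Calb1-only and 106 CPM in Crabp1-only barcodes of wild type.

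Adgrg2 was at 40.5 CPM in Calb1-only, 61.4 CPM in Crabp1-only and 77.0 CPM in barcodes with both in the mutant, and at 152 CPM in Calb1-only, 162 CPM in Crabp1-only and 322 CPM in barcodes with both in wild type. The intervals of the 3 subsets overlap in the mutant, where they rest on 13, 12 and 26 UMIs, while in wild type that of barcodes with both lies above the others. Epyc was at 524 CPM in Calb1-only, 174 CPM in Crabp1-only and 581 CPM in barcodes with both in the mutant, and at 1175 CPM in Calb1-only, 905 CPM in Crabp1-only and 2242 CPM in barcodes with both in wild type. Epyc, Calb1 and Crabp1 chose the barcodes and their subsets, so these values are a description.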

How the data were processed

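The authors deposited raw UMI counts per gene and barcode, without normalization, for 32285 gene identifiers. Per the labels' protocols, cochleae were digested with collagenase/dispase and made into 10x Genomics 3′ libraries. Per the file headers, counts came from Cell Ranger 5.0.1 in Emx2Cre;Ptch1f/f and 6.0.0 in wild type; the submitters' processing notes name mm10 and Cell Ranger 6.0.0. Kit versions differ between descriptions and protocol. The rule for calling barcodes was not given in the sources used here. Deposited totals were 100135532 UMIs in Emx2Cre;Ptch1f/f (12326 barcodes, lowest 500 UMIs) and 61130806 in wild type (6500 barcodes, lowest 3352).

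Counts of gated barcodes were summed per library as CPM with exact Poisson 95% intervals, and shares have Clopper-Pearson intervals (Python 3.11.15, numpy 2.4.6, scipy 1.17.1, pandas 2.3.3). With 1 library per genotype no test was run. Genes with at least 20 UMIs over both libraries counted as measured, and a ratio of 2-fold, with 1 CPM added, as higher or lower. Thinning drew 2000 UMIs per barcode. No doublet caller was run. Ratios and intervals were tested on simulated data. Gene positions came from GENCODE on GRCm38, which held 32235 of the identifiers.

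Members and lists were chosen with earlier results of these data known. Genes named between genotypes were the 12 highest and 12 lowest ratios with at least 100 UMIs, at least 50 CPM where higher and no less than mesenchyme there. Genes named within libraries were the 10 highest and 6 lowest against other epithelium and 8 each way between subsets, of which some are printed. List members are the highest and lowest with at least 30 UMIs or carry the list's role; others were chosen after their values were seen.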

Additional observations from a re-analysis of the deposited data

How the results depend on the processing

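Limits are the 50 mutant (Emx2Cre;Ptch1f/f) barcodes, the unequal depth and the unequal share of mixed barcodes. Gating after thinning to the shallowest wild-type barcode, dropping the Otoa condition and dropping each gene's top barcode were chosen after seeing the data. No paired analysis was possible because each genotype had 1 library; no replicate was left out.

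Genes at least 2-fold higher, 581, and lower, 801, of 11902 became 303 and 309 of 11902 with 5 CPM added, 1189 and 1458 of 17888 with no filter on low counts, 195 and 226 of 7482 with at least 100 UMIs and 977 and 1665 of 9194 with the gate after thinning to 2000 UMIs. The higher genes numbered 872 of 10552 with the gate after thinning to the shallowest wild-type barcode and 379 of 13111 without the Otoa condition; the lower ones 224 of 8206 without mixed barcodes and 1364 of 11049 without deep barcodes. The share kept in the mutant became 0.111% (9 of 8081, thinning to 2000) and 1.28% (31 of 2426, no mixed barcodes). It became 0.216% (16 of 7412, thinning to the shallowest) and 1.84% (172 of 9373, no Otoa condition). In wild type the share became 3.01%, 14.02% (91 of 649), 4.98% and 9.46% under the same settings. It was 6.10% with at least 3 UMIs of Calb1 and Crabp1, 6.55% with 2 epithelial UMIs and 6.65% without haemoglobin-rich barcodes. Barcodes left out as mixed, haemoglobin-rich or too shallow to thin also left the total of which the share was taken. Without mixed barcodes the gate thus kept fewer barcodes, although the share was higher. The Calb1-only share in the mutant became 77.8% (thinning to 2000), 68.8% (thinning to the shallowest) and 64.0% (no Otoa condition), and in wild type 14.5% (3 UMIs of Calb1 and Crabp1), 29.7% (no mixed barcodes) and 28.1% (no Otoa condition). The cause of these moves was not tested.

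Among tracked genes and list medians past 2-fold, ratios changed sign or came to 0 without mixed barcodes for Bmp4 (0.15), Fabp7 (1.07), Fgf20 (0.00), Pvalb (1.34), Sncg (1.53), Spry2 (0.15), Tectb (-0.018), Tubb3 (0.39) and the medians of endothelial (2.18), glial (0.21), hair cell (0.47), neuronal (1.99) and roof genes (0.25). Of values under 2-fold, Emx2 (1.87) and the medians of calcium-binding (0.07), mesenchymal (0.37), prosensory (0.35), medial floor (0.09) and D cyclin, Myc and CDK inhibitor genes (0.24) did so too. Gating after thinning to 2000 UMIs, with 9 barcodes in the mutant, did so for Clspn (-2.20), Etv4 (-2.45), Fgf20 (0.00), Gmnn (-3.31), Igf1 (0.36), Mki67 (-4.65), Pbk (-2.57), Pbld1 (-1.88), Tectb (-1.45), Top2a (-5.46), Tubb3 (0.38) and the median of G2 and M phase genes (-3.84). Thinned barcodes gave Clspn -0.049 and Spry1 -0.34, and dropping deep barcodes Fgf20 -0.59 and Tectb -0.45. Gating at the shallowest wild-type depth gave Fgf20 0.00, Pbld1 -1.93 and Tectb -3.18, no Otoa condition a roof median of 0.49, and no top barcode Pbld1 -0.25. Under 2-fold, Sox2 became -1.24 and -2.79 with the gate after thinning to 2000 and to the shallowest depth and -0.18 without deep barcodes, Hhip -1.04 with thinned barcodes and Ecrg4 0.04 without the Otoa condition. Without haemoglobin-rich barcodes the medians of prosensory (0.32), medial floor (0.09) and marginal cell genes (-0.07) changed sign. Medians of some other lists under 2-fold also changed sign under some settings. Of 43 tracked genes past 2-fold, 35 kept their direction without mixed barcodes and 32 with the gate after thinning to 2000 UMIs. Adgrg2, Ccnd1, Hmga2 and Ptch1 kept theirs under every setting. Without mixed barcodes the endothelial median was that of Emcn alone, with 18 UMIs in the mutant and 8 in wild type. The roof median there was that of Oc90 (3.02) and Rspo3 (-2.52) alone. The mutant barcode with 271 of 297 neuronal UMIs was not a mixed one. It held most of the mutant UMIs of Sncg, Pvalb, Fabp7 and the measured neuronal genes in that setting.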
